A study of Pseudotsuga menziesii with 66 samples.

Results

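The transcripts described here are 150 needle transcripts of Douglas-fir (Pseudotsuga menziesii) whose level correlated positively with collection date over a year of sampling. They were taken from a table of 199471 transcripts. Levels are counts per 1000000 counts of the library (CPM), averaged over the trees of each collection date. A transcript was a candidate when its mean over the date means lay between 10 and 1000 CPM, which 11682 did, and when its highest date mean was at least 2 times and less than 4 times its lowest, which left 6056. Of these, 607 had a Spearman correlation of at least 0.5 between date mean and collection date, and the 150 with the highest correlation are the members. The correlation that chose them ran from 0.662 to 0.912 with a median of 0.718, while the median of all candidates was -0.23. The limit cut through 6 transcripts with the same correlation of 0.662: psme_t022089 and psme_t017897 are the last inside, and psme_t032282, psme_t011884 and psme_t018773 are the first outside.

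The working description of these transcripts was a steady rise with needle age, and the data go against the word steady. None of the 150 rose at all 15 steps between successive dates. A member rose at 5 to 11 of the 15 steps, with a median of 8, and the median candidate rose at 7. The members are therefore called date-correlated transcripts below, after the rule that chose them. The name does not mean that they were highest at the end. The highest date mean fell between May and August in 108 of 150, and in September or October in 40. Because collection date chose them, every difference between dates is given as a description, also where a count of calls is printed, and findings from tests are limited to differences between trees.

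Needles were collected from 5 trees (CCTO44, CCTO46, CCTO90, CCTO89 and CCTO43, from most to fewest libraries) on 16 dates from 27 Oct 2010 to 26 Oct 2011. The trees came from low-elevation Siskiyou seed, CCTO43, CCTO46 and CCTO89 from a lower locality and CCTO44 and CCTO90 from a higher one, and grew in 1 common garden in Oregon. Each library is poly(A) RNA of a few pooled needles from all sides of 1 tree, all needles belonging to the cohort that flushed in 2010 and all picked around noon. The groups are the dates, with no treatment: 5 trees on 27 Oct, 9 Nov and 30 Nov 2010 and on 6 Jan, 7 Feb and 10 Mar 2011, 4 trees on 23 Feb, 7 Apr, 6 May, 17 Jun, 7 Jul, 28 Jul and 17 Aug, 2 trees on 7 Sep, and 3 trees on 7 Oct and 26 Oct 2011. Each tree is a single individual, so a difference between trees cannot be told apart from a difference between the places where they stood. Needle age, season and the weather of that year moved together and cannot be told apart either, and in bulk needle tissue neither can fewer cells of a type and less RNA per cell.

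Depth lay between 9924771 and 37373284 counts a library, the median being 20944426. A count of 0 is compatible with up to 3 counts, which come to 0.302 CPM at the lowest total and 0.0803 CPM at the highest, for counting error only. Libraries differed in how much of the total a few transcripts took. The 20 most abundant transcripts held between 7.78% and 15.4% of the counts in the libraries up to 23 Feb 2011, between 13.6% and 29.9% in those from 10 Mar to 17 Aug 2011, and 48.3% in the CCTO43 library of 26 Oct 2011. Of the other libraries from September on, CCTO44 on 7 Sep held 38.0% and the rest between 11.9% and 22.1%. The CCTO43 library of 26 Oct 2011 stands apart, and the comparisons of the last date with the first are given with and without it. The libraries labelled CCTO44 and CCTO46 on 17 Aug 2011 went against their labels: all 8 members, and all 191 candidates, that differed at least 2-fold between these trees on average over the other 13 shared dates had the opposite order on that date. When each of those 13 dates was left out in turn, and members were picked by their average over the remaining ones, 0 had the opposite order on the date left out. The mean of a date is the same if these labels are exchanged, so the choice of members does not depend on them.

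A Douglas-fir needle is kept for several years. It expands in spring and early summer, stops growing, hardens with the onset of cold, lowers photosynthesis in winter and recovers it in spring. In the second year the same needle supports a new flush of shoots while its own walls, waxes and stored compounds age. No gene names come with the transcript identifiers in these files, so the members could not be grouped by role, and the needle identity of the samples could not be checked against marker genes. No sequences of these transcripts were used here, so members are described by their level, course and variation among trees.

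The members were mostly of modest abundance. Their level, the mean of the 16 date means, ran from 10.1 to 675 CPM with a median of 25.6 CPM, and 111 of 150 lay under 50 CPM while 10 lay over 200 CPM. The ratio of highest to lowest date mean ran from 2.05 to 3.96 with a median of 3.03. All 150 had enough counts in enough libraries to enter the tests, among 60931 transcripts that did.

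The year of the date-correlated transcripts had a winter low, a long climb and a late-summer top. Relative to each member's own mean over the dates, on a log2 scale, the median member stood at -0.24 on 27 Oct 2010, fell to -0.68 on 30 Nov and -0.67 on 6 Jan, and passed its mean between 7 Apr (-0.11) and 6 May (0.30). It reached 0.64 on 17 Aug, dropped to 0.19 on 7 Sep and ended at 0.34 on 7 Oct and 0.24 on 26 Oct 2011. The lowest date mean fell on 30 Nov or 6 Jan in 102 of 150 members, and on one of the dates from 30 Nov to 7 Feb in 126. The highest date mean fell on 17 Aug in 64, between May and August in 108, and in September or October in 40.

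**Figure D1:**
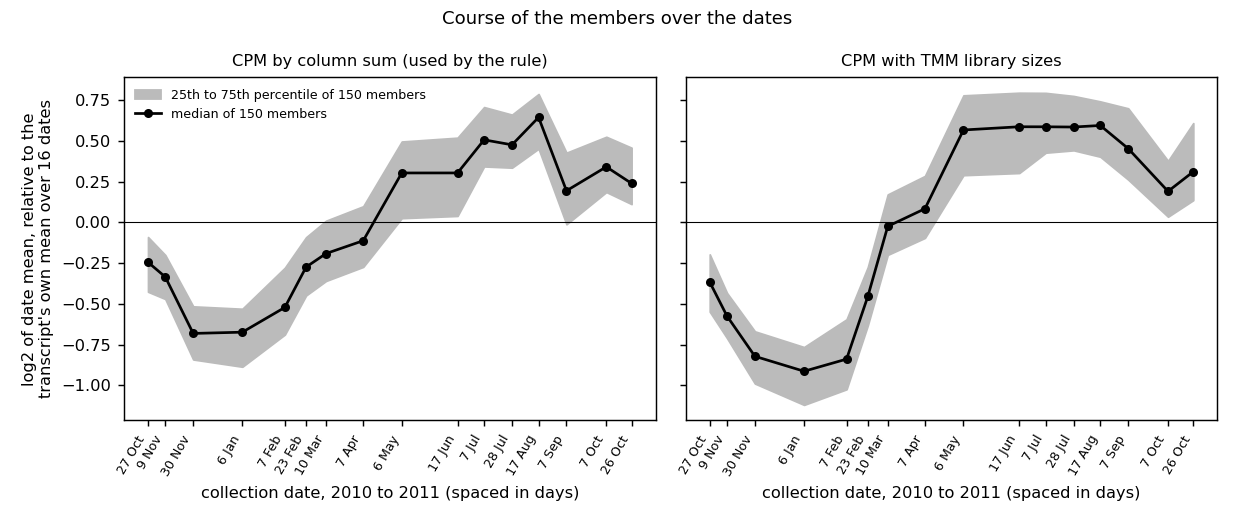
Median and 25th to 75th percentile of 150 members at each collection date, as log2 of the date mean relative to the transcript's own mean over 16 dates (vertical axis) against date (horizontal axis, spaced in days). The left panel uses CPM by column sum, as the rule did, and shows the winter low, the top on 17 Aug and the drop on 7 Sep; in the right panel, with TMM library sizes, a plateau near 0.59 from 17 Jun to 17 Aug replaces the top.

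The scale matters for this shape. TMM library sizes, which give less weight to a few very abundant transcripts, ran from 0.549 to 1.36 times the summed counts of the transcripts that entered the tests. With them the low was deeper, with a median of -0.91 on 6 Jan, the level was nearly flat from 6 May (0.57) over 17 Jun (0.59) to 17 Aug (0.59), and the following dates stood at 0.45 on 7 Sep, 0.19 on 7 Oct and 0.31 on 26 Oct 2011. The lowest part of the course was in winter and the highest in May to August on both scales. Steps in autumn depended on scale. At the step to 7 Sep 129 of 150 were lower than on 17 Aug, the median change was -0.39 log2 with column sums and -0.098 log2 with TMM, and 16.2% of all candidates were higher at that step with column sums. That date also has only 2 trees. At the step to 7 Oct the median change was 0.14 log2 with column sums and -0.26 log2 with TMM.

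Summed over the 150 members, their share of the needle's messages went from 6580 ± 275 CPM on 27 Oct 2010 (SD, n = 5 trees) to 5038 ± 230 on 6 Jan 2011 (n = 5) and 11998 ± 328 on 17 Aug (n = 4). The 17 Aug value was 2.38 times that of 6 Jan. On 6 Jan the 5 libraries lay between 4840 and 5427 CPM and on 17 Aug the 4 libraries between 11616 and 12413 CPM, with no overlap. On 26 Oct 2011 the sum was 7845 CPM in CCTO43, 10408 in CCTO90 and 11344 in CCTO44, a mean of 9866 ± 1811 (n = 3) and 1.50 times that of 27 Oct 2010. Without the CCTO43 library the mean was 10876 CPM and the ratio 1.65. All 3 values of the last date lay above the highest value of the first, 6906 CPM. The order of the trees on the last date depended on the scale: with TMM library sizes CCTO43 was the highest, at 14318 CPM, over 9277 in CCTO44 and 8947 in CCTO90. A set of 150 was chosen by the same rule in the other direction, by the most negative correlation with date. Its sum went from 11215 ± 377 CPM on the first date to 5726 ± 2559 on the last.

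**Figure D2:**
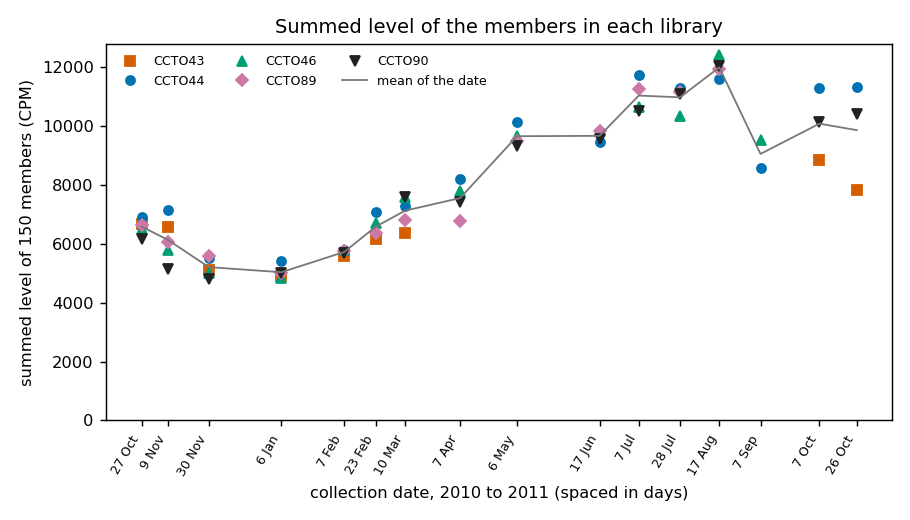
Summed level of the 150 members in CPM (vertical axis, from 0) in each of 66 libraries against collection date, with a symbol for each tree and a line through the date means. Trees lie close together through winter and summer, from 4840 to 5427 CPM on 6 Jan and from 11616 to 12413 CPM on 17 Aug, and apart on 26 Oct 2011, where CCTO43 is the lowest at 7845 CPM (with TMM library sizes, not drawn, it is the highest at 14318 CPM).

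Between 6 Jan and 17 Aug all 150 members rose in date mean, where 49.7% of candidates did. The rise had a median of 1.33 log2, or 2.51-fold, and ran from 0.39 to 1.98 log2. In 130 of 150 members every 17 Aug library lay above every 6 Jan library. That background was 25.7% of the 6056 candidates, and nothing is read from the difference, since these dates were used in the choice. Before this climb, 133 of 150 members were lower on 6 Jan than on 27 Oct 2010, where they stood a median of 1.35-fold higher. After it, 120 of 150 were lower on 26 Oct than on 17 Aug, with a median change of -0.37 log2. For these falls no shares of candidates are given, and nothing is read from the counts.

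With column sums, most members were higher than on the date before at each step of the climb except that to 28 Jul. From 6 Jan to 7 Feb 120 were higher, beside 60.2% of candidates, and from 7 Feb to 23 Feb 119, beside 49.97%. At the step to 10 Mar 98 were, beside 30.5%, and at the step to 7 Apr 101, beside 44.5%. From 7 Apr to 6 May 120 were, beside 53.2%, and at the step to 17 Jun 85, beside 44.8%. From 17 Jun to 7 Jul 110 were, beside 54.1%, and at the step to 28 Jul 67, beside 49.5%. From 28 Jul to 17 Aug 128 were, but so were 79.4% of candidates, and the median step was 0.12 log2 with column sums and -0.030 log2 with TMM. The single largest rise of a member came most often at the step to 6 May, in 43 of 150, and next at the step to 7 Jul, in 36. The deepest fall came at the step to 7 Sep in 65 and at the step to 30 Nov in 41. At the start of sampling falls prevailed, among candidates as well. From 27 Oct to 9 Nov 105 members fell, where only 39.9% of candidates were higher. From 9 Nov to 30 Nov 132 fell, where 41.2% of candidates were higher.

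**Figure D3:**
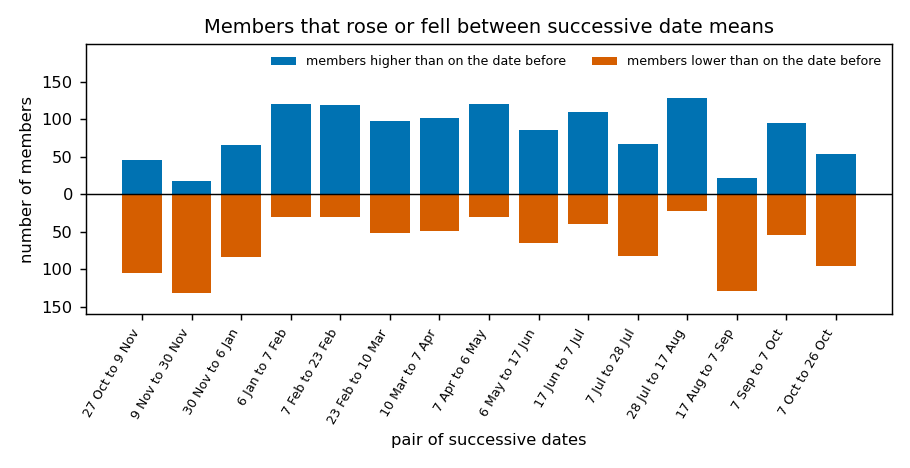
Number of the 150 members whose date mean rose (bars up) or fell (bars down) at each of the 15 steps between successive dates, on a linear axis. Falls outnumber rises at 6 of the 15 steps, most at the steps to 30 Nov (132 fell) and to 7 Sep (129 fell).

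Measured over the 16 date means, a straight line in time took a median of 52.3% of a member's variance on the log2 scale, from 32.2% to 82.7%. A single annual cycle, with the top free to fall on any day, took a median of 68.6%, and the line and the cycle together took 78.1%. The cycle took more than the line in 110 of 150 members, and in 120 with TMM library sizes; among candidates it did so in 5401 of 6056, a larger share. The cycle has 1 more free term than the line, so the shares are a description of shape. With both fitted, the line still added a median of 0.55 log2 from the first date to the last. The members thus differ in their mix: in psme_t018380 the line took 82.7% and the cycle 38.6%, while in psme_t032909 the line took 51.0% and the cycle 84.4%.

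The transcript that ranked first, psme_t038866, had a correlation of 0.912 and a level of 32.1 CPM. On 27 Oct 2010 it measured 18.0 CPM in CCTO43, 48.4 in CCTO44, 17.5 in CCTO46, 17.0 in CCTO89 and 27.1 in CCTO90. On 26 Oct 2011 it measured 27.9 CPM in CCTO43, 51.5 in CCTO44 and 45.4 in CCTO90. All 3 trees were higher a year later, but the groups overlap because CCTO44 was high on both dates. Its highest date mean, 50.05 CPM on 7 Sep, rests on 79.6 CPM in CCTO44 and 20.5 in CCTO46, so the mix of trees sampled enters its course. After the mean of each tree was removed its correlation was 0.853.

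In the second, psme_t018380, the lowest correlation with date in any single tree, 0.850, was higher than in any other member. It measured between 24.7 and 29.1 CPM in the 5 trees on 27 Oct 2010, and 56.0 CPM in CCTO43, 68.6 in CCTO44 and 57.4 in CCTO90 on 26 Oct 2011. The date mean went from 27.4 ± 1.7 CPM (SD, n = 5) over 29.6 ± 2.9 on 6 Jan (n = 5) and 65.5 ± 8.4 on 17 Aug (n = 4) to 60.7 ± 6.9 (n = 3), with no overlap between first and last date. It did dip on the way, from 43.3 ± 3.0 CPM on 7 Apr to 33.9 ± 3.1 on 17 Jun (n = 4 each). Within single trees its correlation with date was 0.850 in CCTO43, 0.915 in CCTO44, 0.868 in CCTO46, 0.857 in CCTO89 and 0.899 in CCTO90. Of all members it had the highest share of variance on a straight line, 82.7%.

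The third, psme_t054507, had its low in February and its top in October. It measured 30.9 ± 1.7 CPM on 27 Oct 2010 (SD, n = 5), 19.4 ± 2.5 on 7 Feb (n = 5), 43.7 ± 5.8 on 17 Aug (n = 4) and 46.01 ± 6.71 on 7 Oct 2011 (n = 3). On 26 Oct 2011 the libraries gave 42.5 CPM in CCTO43, 42.95 in CCTO44 and 47.8 in CCTO90, all above the first date's highest value of 32.99 CPM. Farther down the same part of the order, psme_t019594 (0.832) had its top on 7 Oct 2011, where it measured 98.1 CPM in CCTO43, 92.4 in CCTO44 and 128.6 in CCTO90 against 53.3 to 62.3 CPM in the 5 trees on 27 Oct 2010. The other 6 of the first 10, psme_t013380, psme_t004747, psme_t008849, psme_t015352, psme_t014573 and psme_t035204, had correlations of 0.821 to 0.835 and levels of 10.1 to 57.0 CPM, and each was lowest between 30 Nov and 7 Feb.

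The most abundant member was psme_t016725, at 675 CPM over the dates. It measured 354 CPM in CCTO43, 572 in CCTO44, 503 in CCTO46, 570 in CCTO89 and 495 in CCTO90 on 27 Oct 2010, and stayed between 258 and 595 CPM in every library to 10 Mar 2011. The libraries of 17 Aug gave 862 CPM labelled CCTO44, 1370 labelled CCTO46, 1087 in CCTO89 and 1069 in CCTO90, all above every earlier library up to 10 Mar. By 26 Oct 2011 it stood at 628 CPM in CCTO43, 1020 in CCTO44 and 873 in CCTO90. It rose at 11 of the 15 steps, and no member rose at more.

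Among the next abundant members, psme_t035446 (435 CPM over the dates) measured 364.8 ± 35.1 CPM on 27 Oct 2010 (SD, n = 5), 260 ± 25 on 6 Jan (n = 5), 667 ± 62 on 17 Aug (n = 4) and 427 ± 123 on 26 Oct 2011 (n = 3). The last mean spans 285 CPM in CCTO43, 498 in CCTO44 and 499 in CCTO90, so first and last date overlap. psme_t028460, at 288 CPM, measured 239 ± 20 CPM on the first date, 173 ± 15 on 6 Jan and 377 ± 22 on 17 Aug, and its libraries on these 3 dates do not overlap. Its date mean was highest on the last date, which held 663 CPM in CCTO43, 290 in CCTO44 and 229 in CCTO90; with or without the CCTO43 library the last date overlaps the first, whose libraries lay between 211 and 254 CPM. The other members of this group, psme_t022655 at 305 CPM and psme_t032909 at 271 CPM, both had their highest date mean on 17 Aug.

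Members with the largest ratio of highest to lowest date mean included psme_t032400 and psme_t004277, at 3.94 each. psme_t032400 measured 29.7 ± 4.6 CPM on 6 Jan (SD, n = 5) and 117 ± 30.5 CPM on 17 Aug (n = 4), and the libraries of the latter date lay between 73.2 CPM in CCTO90 and 138 CPM in CCTO89. All of them lay above the highest library of 6 Jan, 33.3 CPM. psme_t004277 was lowest on 6 Jan, between 11.8 CPM in CCTO89 and 49.7 in CCTO43, and highest on 17 Jun, between 88.8 CPM in CCTO89 and 192 in CCTO46. The others with such ratios were psme_t023139 at 3.96, psme_t033586 at 3.95 and psme_t014573 at 3.94.

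Some members changed in a step. psme_t027652 had the largest single rise, 1.62 log2 from 7 Apr to 6 May: it measured 11.2 CPM in CCTO44, 14.0 in CCTO46, 6.46 in CCTO89 and 9.24 in CCTO90 on 7 Apr, and 32.8, 37.3, 24.1 and 31.7 CPM in the same trees on 6 May. All 4 trees rose and the dates do not overlap. Before the step it had drifted down from 16.0 ± 2.0 CPM on 27 Oct 2010 (SD, n = 5), and the lowest library after it measured 19.4 CPM. Its last date held 30.4 CPM in CCTO43, 27.5 in CCTO44 and 38.7 in CCTO90. The next largest single rises were 1.41 log2 in psme_t001936 at the step to 7 Jul and 1.25 log2 in psme_t019333 at the step to 6 May.

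Others broke off in September. psme_t006223 had the deepest fall, -1.36 log2 from 17 Aug to 7 Sep: the 4 libraries of 17 Aug lay between 16.3 and 21.7 CPM, while 7 Sep gave 7.67 CPM in CCTO44 and 6.79 in CCTO46. It was back at 27.9 CPM in CCTO44 and 22.2 in CCTO90 on 26 Oct 2011, with 9.41 in CCTO43, against 4.34 to 8.49 CPM on 27 Oct 2010. This gave it the largest difference between the October dates in date mean, 1.68 log2. psme_t006598 fell by 1.21 log2 at the same step. psme_t033188 instead had its highest date mean on 7 Sep and fell by 1.16 log2 at the step to 7 Oct. CCTO46 was sampled on 7 Sep but not on 7 Oct. Over the 6 dates with all 5 trees this transcript averaged 12.7 CPM in CCTO46, its highest tree. It averaged 8.00 CPM in CCTO43, 7.78 in CCTO44 and 7.71 in CCTO90. The part of the change of trees in this fall was not tested.

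**Figure D4:**
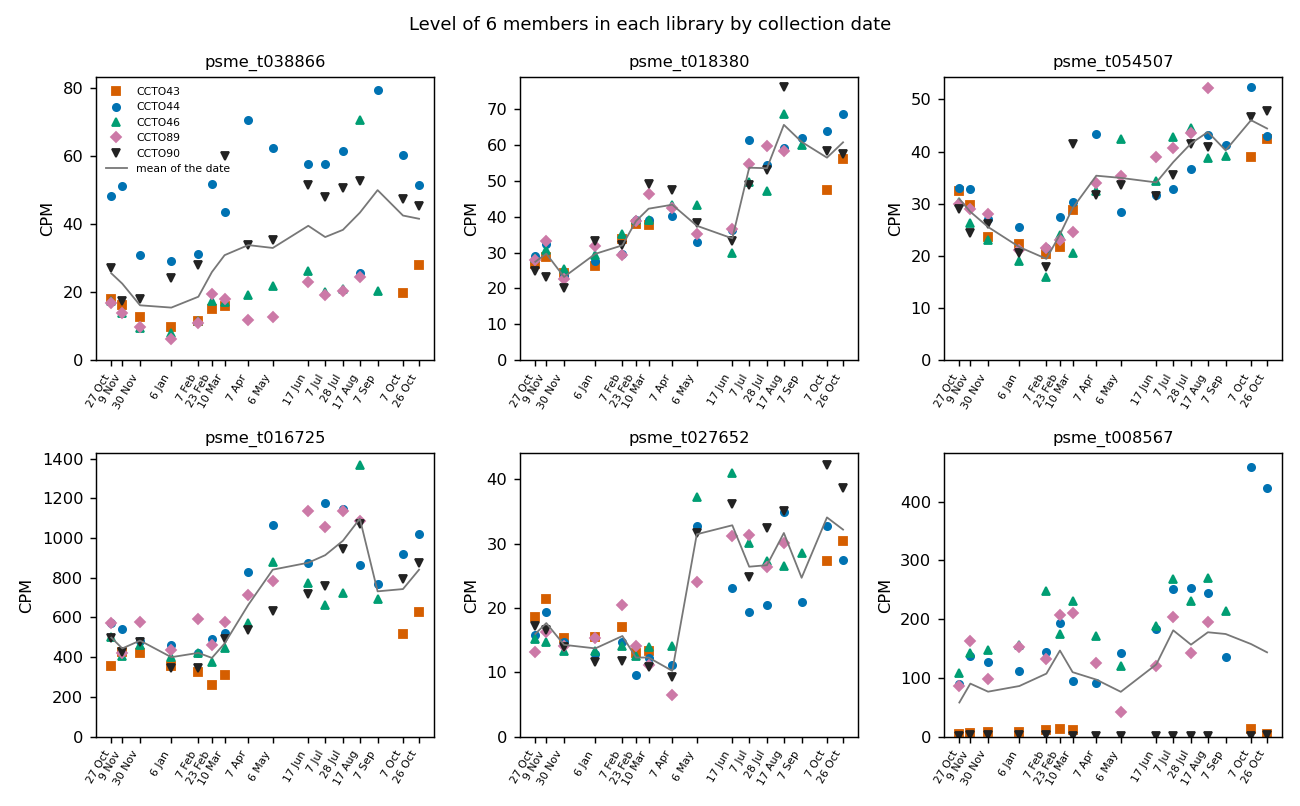
CPM of 6 members in each library against collection date, with a symbol for each tree and a line through the date means; each panel has its own linear axis from 0. The panels show the trees lying close together in psme_t018380, the step to 6 May in psme_t027652, the exchanged order of CCTO44 and CCTO46 on 17 Aug in psme_t038866, and CCTO43 and CCTO90 near 0 in psme_t008567.

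Followed within single trees, the correlation with date was weakest in CCTO43, which was sampled least. The median correlation of a member's CPM with date was 0.65 over 16 dates in CCTO44, 0.73 over 14 in CCTO46, 0.70 over 13 in CCTO89 and 0.74 over 14 in CCTO90, against 0.24 over 9 in CCTO43. It was at least 0.5 in 129, 140, 130 and 144 of 150 members in the first 4 of these trees and in 32 in CCTO43, while 7.76%, 17.7%, 23.6%, 17.8% and 2.92% of candidates reached it in the same order. CCTO43 was not sampled between 10 Mar and 7 Oct 2011, the months of the climb. On its 9 dates, of which CCTO46 and CCTO89 had only 7 and CCTO90 8, the median correlation was 0.49 in CCTO44, 0.29 in CCTO46, 0.036 in CCTO89 and 0.60 in CCTO90. Of 150 members, 105 had a correlation of at least 0.5 in all 4 other trees, 110 if the 17 Aug labels are exchanged, and 102 had a positive one in all 5.

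Each tree also helped to choose the members, so the rule was run again with each tree left out and the 150 transcripts it then chose were followed in that tree. The tree left out shares the dates, and so the weather, with the others. The median correlation in the tree left out was 0.62 in CCTO44, 0.73 in CCTO46, 0.69 in CCTO89, 0.71 in CCTO90 and 0.16 in CCTO43. It was at least 0.5 in 115, 134, 126, 136 and 20 of 150 transcripts in that order, against 7.49%, 17.9%, 24.0%, 17.7% and 2.81% of the candidates. Of the 150 members, 89 to 118 were chosen again when a tree was left out. After the mean of each tree was removed from all its libraries, 149 of 150 members kept a correlation of at least 0.5, and psme_t008567 fell to 0.476.

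The first and last dates fall at the same time of year and so hold the season constant, though not the weather. In date mean 149 of 150 members were higher on 26 Oct 2011 than on 27 Oct 2010, where 27.7% of candidates were. The median difference was 0.54 log2, or 1.45-fold, and 71 members were at least 1.5-fold and 15 at least 2-fold higher, beside 4.23% and 0.760% of candidates. Without the CCTO43 library of the last date 148 were higher, beside 47.9% of candidates, by a median of 0.72 log2. Of them 94 were at least 1.5-fold and 31 at least 2-fold higher, for which no shares of candidates are given. With TMM library sizes all 150 were higher, beside 36.9% of candidates, by a median of 0.75 log2. Of them 93 were at least 1.5-fold and 35 at least 2-fold higher, beside 7.98% and 2.21% of candidates. The median candidate moved by -0.29 log2 with column sums and -0.18 log2 with TMM. By the edgeR quasi-likelihood test with the tree in the model, 89 members were higher on the later date at a Benjamini-Hochberg adjusted p under 0.05, beside 13.8% of all 60931 transcripts tested. Without the CCTO43 library of 26 Oct 2011 56 were, beside 9.85%. The same tool called a rising linear trend in all 150, beside 31.6% of all transcripts. Both contrasts enter the rule, so these counts describe the members and nothing is read from them.

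The 3 trees with both dates did not show the same picture. In CCTO44 147 of 150 members were higher a year later, by a median of 0.63 log2, and in CCTO90 149 were, by 0.82 log2. In CCTO43 72 were higher and 78 lower, with a median of -0.02 log2 and single members from -2.21 to 2.29 log2. In this CCTO43 library the 20 most abundant transcripts took 48.3% of the counts and its TMM factor was 0.549, the lowest of all. With TMM library sizes 127 members were higher in CCTO43, by a median of 0.85 log2, and on 7 Oct 2011 139 were, by 0.40 log2 with column sums. The part of the abundant transcripts in the CCTO43 result was not tested.

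**Figure D5:**
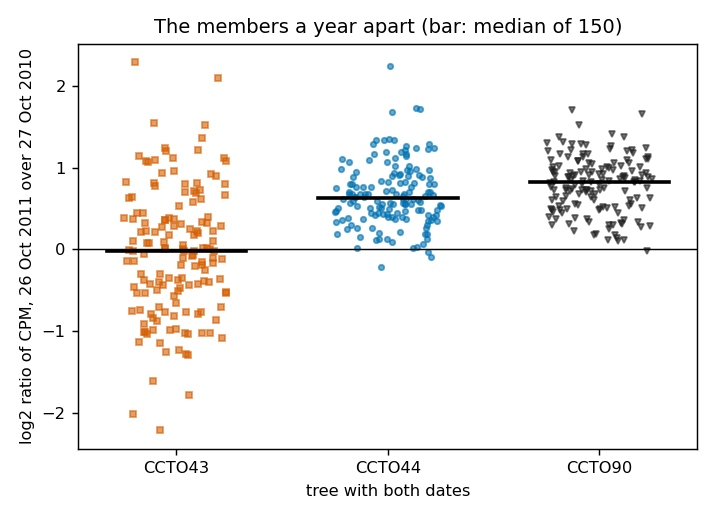
Log2 ratio of CPM on 26 Oct 2011 over 27 Oct 2010 for each of the 150 members (points) in the 3 trees sampled on both dates, with a bar at the median; points are spread sideways only to be seen. In CCTO44 and CCTO90 nearly all points lie above 0, with medians of 0.63 and 0.82, and in CCTO43 they lie on both sides, with a median of -0.02.

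The members higher on the last date in both CCTO44 and CCTO90 were 146, and those higher in all 3 trees were 70. In 38 of 150 members every library of 26 Oct 2011 lay above every library of 27 Oct 2010, beside 2.36% of candidates. Without the CCTO43 library this held in 111, for which no share of candidates is given. With fewer libraries an overlap is less likely, so nothing is read from the larger count. Both October 2011 date means lay above every date mean up to 10 Mar 2011 in 122 members, beside 8.60% of candidates. With TMM library sizes this held in 94 members, beside 9.30% of candidates. These dates were used in the choice, so nothing is read from these counts.

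Differences between the trees on the same dates were not the contrast that chose the members, and they were tested. They did enter the date means, since not all trees were sampled on each date, so the test is not independent of the choice. With tree means removed, the rule chose 112 of the 150 again. Of 150 members, 115 (76.7%) differed among the 5 trees (edgeR F test with the date in the model, adjusted p under 0.05 by Benjamini-Hochberg), beside 71.5% of all transcripts tested, so the share is near the background. It was 116 without the 2 libraries that went against their labels on 17 Aug, beside 73.6%, and 119 with these labels exchanged, beside 74.7%. The transcripts that fell with date by the mirrored rule gave 105 of 150, or 70.0%. The test treats libraries of the same tree on different dates as independent. Over the 6 dates with all 5 trees, the highest tree mean was a median of 1.40 times the lowest among members and 1.35 times among candidates. It was at least 2 times in 24 members (16.0%), where 11.2% of candidates reached this.

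The largest difference between trees was in psme_t008567. It measured 0.24 to 2.89 CPM in the 14 libraries of CCTO90 and 3.90 to 12.9 CPM in the 9 of CCTO43, but 89.3 to 459 CPM in CCTO44, 108.5 to 270 CPM in CCTO46 and 42.4 to 211 CPM in CCTO89. CCTO90 and CCTO43 do not overlap each other or any of the other trees. Over the 6 shared dates the means were 1.98 ± 0.83 CPM in CCTO90 (SD over 6 dates), 8.23 ± 2.55 in CCTO43, 117 ± 23 in CCTO44, 172 ± 55 in CCTO46 and 141 ± 46 in CCTO89, a ratio of 87.0 between highest and lowest (edgeR adjusted p = 5.0e-29). The low trees come from both seed localities, and so do the high ones. With 2 trees this low, the date mean of this transcript moves with which trees were sampled, and its correlation fell from 0.762 to 0.476 once tree means were removed.

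In psme_t015306 a single tree stood apart. CCTO90 measured 6.64 to 12.7 CPM in its 14 libraries while every library of the other trees lay between 16.0 and 52.6 CPM, with no overlap (edgeR adjusted p = 4.6e-27). Without CCTO90 the other 4 trees no longer differed at the threshold, with an adjusted p of 0.0953. Its correlation with date was positive in all 5 trees, from 0.467 in CCTO43 to 0.802 in CCTO46, with 0.587 in CCTO90.

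In psme_t007576 CCTO43 was the high tree. Over the 6 shared dates it averaged 22.5 ± 11.6 CPM (SD over 6 dates) in CCTO43, 10.6 ± 2.6 in CCTO44, 3.57 ± 1.30 in CCTO46, 4.30 ± 1.39 in CCTO89 and 4.80 ± 0.79 in CCTO90 (edgeR adjusted p = 7.4e-18). CCTO43 was above every other tree on each of these dates, and CCTO46, CCTO89 and CCTO90 overlap each other. At the other end, psme_t018380 had an adjusted p of 0.900 for a difference among trees, the log2 differences from CCTO43 lying between -0.087 and -0.034 with standard errors of 0.096 to 0.101. psme_t054507 (adjusted p = 0.489), psme_t035446 (0.403) and psme_t028460 (0.251) also missed the threshold, which does not show that their trees were alike.

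Whether the rise itself differed between trees was tested as a difference of slopes over the days. It passed in 7 of 150 members (4.67%), beside 3.12% of all transcripts (edgeR, adjusted p under 0.05), and nothing is read from a count this small. It was 4 without the CCTO43 library of 26 Oct 2011, beside 2.71%, and 2 to 4 with a tree left out, beside 1.03% to 3.07%. It was 15 with library sizes from total counts, beside 4.96%, and 11 with the 17 Aug labels exchanged, beside 4.36%. With no filter on low counts it was 4, beside 0.818% of a background that then took in transcripts with few counts. With total counts, with exchanged labels and with no filter, the members' share was more than 1.5 times that of all transcripts. It was not without that CCTO43 library or with a tree left out. In simulated counts, with 100 transcripts changed per size and a single dispersion of 0.102, this test recovered 0% of 2-fold and 7% of 4-fold differences in slope. The changed transcripts were drawn from all levels and differed only in the CCTO90 slope, so these rates need not hold for the members. A member that did not pass is not shown to have the same slope in all trees. The clearest was psme_t008567 (adjusted p = 0.00498), whose CCTO90 slope differed from that of CCTO44 by -2.85 log2 over the span of collection (SE 0.52). CCTO90 held at most 2.89 CPM, and CCTO44 went from 89.3 CPM on 27 Oct 2010 to 424 CPM on 26 Oct 2011. Without CCTO90 the adjusted p was 0.180.

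In psme_t021248 the trees took the same low in winter and parted in spring. On 6 Jan it measured 43.8 CPM in CCTO43, 39.0 in CCTO44, 29.0 in CCTO46, 35.3 in CCTO89 and 34.9 in CCTO90, while on 6 May it measured 108 CPM in CCTO44, 96.8 in CCTO46, 52.9 in CCTO89 and 137 in CCTO90. CCTO89 stayed between 44.6 and 55.2 CPM from 7 Apr to 17 Aug, and CCTO90 between 83.4 and 137 CPM from 7 Apr to 26 Oct. The slopes differed with an adjusted p of 0.0136, which rose to 0.100 without CCTO89 and 0.409 without CCTO90. In psme_t017182 the slope of CCTO46 was 1.50 log2 higher (SE 0.39), that of CCTO89 1.36 log2 higher (SE 0.41) and that of CCTO90 1.04 log2 higher (SE 0.35) than that of CCTO44 (edgeR adjusted p = 0.0272). Without CCTO44 the adjusted p was 0.358 and without CCTO46 0.0952.

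Within dates, the members did not move as a unit. After date and tree effects were removed from log2 CPM, the correlation between 2 members over 66 libraries had a median of 0.18 across 11175 pairs, and between candidates it was 0.30. Without the CCTO43 library of 26 Oct 2011 these were 0.11 and 0.14. The libraries share depth and composition, so the values are a description. Above 0.8 were 16 pairs, and 8 without that library. The 4 closest pairs are named for this, after their values were seen. The closest were psme_t016376 and psme_t010405, at 37.7 and 38.1 CPM over the dates, with a correlation of 0.962, or 0.956 without that library. Next came psme_t014685 with psme_t015958 (0.936, or 0.822 without it), psme_t016509 with psme_t011342 (0.930, or 0.920) and psme_t019755 with psme_t021790 (0.930, or 0.920). The assignment of reads between near-identical transcripts is not given in the sources, and whether such pairs share reads is not known.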

How the data were processed

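RNA-seq counts of 199471 transcripts in 66 needle libraries, deposited by the authors as whole-number counts, were the input of every value. Per the submitters' processing notes, CASAVA 1.8, Bowtie2 2.2.3 and DESeq were used, while the sources used here do not name the transcript reference or the counting tool. The authors' deposited normalized signal values served only as an alternative, and an interpolated table was not used. CPM were computed from column sums (Python 3.11.15, numpy 2.4.6, pandas 2.3.3, scipy 1.17.1), date means were taken over trees, and log2 within-date correlations used a prior of 0.5 CPM.

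Tests used edgeR 4.0.16 in R 4.3.3 on all 66 libraries: filterByExpr by date with a minimum count of 10 (60931 transcripts kept), TMM, trended dispersion, robust quasi-likelihood F tests and Benjamini-Hochberg adjustment over all transcripts at 0.05. DESeq2 1.42.0 was an alternative. The tree was a block in each test of dates because the same tree returns on each date. On simulated counts edgeR recovered 71% of 2-fold and 91% of 4-fold differences of CCTO90 from the other trees. The changed transcripts were drawn from all levels and a single dispersion of 0.102 was used. These rates need not hold for the members or for other differences between trees. The members, the tests and the rule for named transcripts (the first 10 by the rule, the 5 most abundant, the 5 largest ratios, the last 3 inside and first 3 outside, the 3 smallest p per test of trees, the 3 deepest falls and the 3 largest rises) were chosen with earlier results of these data known.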

Additional observations from a re-analysis of the deposited data

Results flagged for a closer look

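In 182 groups of 4 or 5 libraries of a date, made of 13 members whose values by date are given above and of the summed level, 12 libraries stood far from the others of their date by Dixon's criterion at the 95% level, which chance alone passes in about 1 in 20 groups. CCTO44 was the library apart in 6 of them: psme_t038866 at 51.3 CPM on 9 Nov 2010 and 51.7 CPM on 23 Feb 2011, psme_t016725 at 539.8 CPM on 9 Nov 2010, psme_t028460 at 373.5 CPM on 6 May 2011, and psme_t035446 at 413.6 CPM on 23 Feb and 408.7 CPM on 17 Jun 2011. It was the highest library of its date in all of these except the last, where it was the lowest.

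CCTO89 on 7 Apr 2011 was the lowest library in psme_t019594 at 36.0 CPM, psme_t021248 at 44.6 CPM and psme_t035446 at 290.8 CPM. The remaining values were psme_t006223 at 17.7 CPM in CCTO89 on 17 Jun and 25.2 CPM in CCTO90 on 7 Jul 2011, and psme_t008567 at 12.4 CPM in CCTO43 on 23 Feb 2011. CCTO43 was low for psme_t008567 in all its libraries, and CCTO90, the other low tree, was not sampled on 23 Feb.

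The course over the days differed between trees in 7 members by edgeR's test of slopes, with adjusted p-values of 0.00498 for psme_t008567, 0.0136 for psme_t021248 and 0.0272 for psme_t017182.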

How the results depend on the processing

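The choice of members depended on the scale: of the 150, the rule chose again 59 with TMM library sizes, 64 from the authors' deposited normalized values, 93 with the median over trees, 89 without 7 Sep 2011, and 89 to 118 with a tree left out. The count differing among trees (115, beside 71.5% of all transcripts) stayed between 96 and 119 in every alternative except 51 with no date in the model (47.9%). The share of all transcripts was 40% with no filter, where the count was 107, and between 58.3% and 74.7% in the others. The count differing in slope (7, beside 3.12% of all transcripts) was 4 with DESeq's size factors (RLE, 3.04%) and with upper-quartile scaling (2.99%). It was also 4 with no filter (0.818%) and without the CCTO43 library of 26 Oct 2011 (2.71%). It was 15 with total counts (4.96%), 11 with the 17 Aug labels exchanged (4.36%) and 2 to 4 with a tree left out (1.03% to 3.07%). The count higher a year apart (89, beside 13.8% of all transcripts) was 56 without that CCTO43 library (9.85%) and 61 to 86 with a tree left out (9.51% to 13.2%). It was 67 with no filter (4.48%), 68 with no replicate block (9.66%) and 72 with total counts (11.3%). It was 93 without the 2 libraries of 17 Aug (14.9%), 96 with upper-quartile scaling (14.6%) and with labels exchanged (15.4%), and 118 with RLE (16.5%). The linear trend gave 149 to 150 with a tree left out (27.1% to 32.5%) and 149 with no replicate block (28.9%). Pairs above 0.8 within dates (16) were 8 without that library, a setting chosen after seeing the data, as were the exchange of labels for the course in single trees and the levels a year apart without that library. The members' share differing among trees was above that of all transcripts in the main setting and below it with no date in the model. Their share differing in slope was above in the main setting and below with RLE, with upper-quartile scaling and without that CCTO43 library. With TMM the median step to 7 Oct went from 0.14 to -0.26 log2 and the median of CCTO43 a year apart from -0.02 to 0.85 log2. The cause of these changes was not tested. Depth limits little at these levels, since 3 counts stand for at most 0.302 CPM, except for psme_t008567 in CCTO90.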
